A study of Mus musculus with 6 samples.

Results

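Guanylate-binding proteins (Gbp) and immunity-related GTPases (Irg) are 2 families of interferon-inducible GTPases, and 10 of their genes were described in mouse lung tumors with and without interstitial pneumonia (IP). The 10 genes were Gbp2, Gbp3, Gbp5, Gbp6 and Gbp7 of the Gbp family and Igtp, Irgm1, Irgm2, Iigp1 and Gm4841 of the Irg family, of 31130 genes in the count tables. They were taken by gene symbol from a list selected on the fold change between the groups in the same 6 tumors, so their difference between the groups is given as a description, without a test.

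Tumor tissue was taken from 3 mice with lung cancer alone (LC) and 3 mice with lung cancer and IP (IP+LC). All were wild-type female C57BL/6 mice, 6 to 8 weeks old. The IP+LC mice had been given bleomycin, which causes lung injury and fibrosis, through the throat at 2.0 mg/kg body weight on day 0, and the LC mice had received saline. Lewis lung carcinoma (LLC) cells carrying a green fluorescent protein, 1 mouse cell line, were injected into the left lung of all mice on day 14, and tissue was collected on day 21. The labels name the material as lung cancer cells, but the RNA came from whole tumor tissue and held transcripts of many host cells.

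Each library counted unique molecular identifiers (UMIs) at the 3′ end of transcripts, so that 1 molecule gives 1 count whatever the length of the transcript. Levels are given as CPM, the UMIs of a gene scaled to a common library total, after adjustment of the totals by the TMM method. The LC libraries held 592733, 1379759 and 1356381 UMIs, and the IP+LC libraries held 1336919 to 1631066. UMIs fell on 15182, 20522 and 24293 genes in LC replicates 1, 2 and 3 and on 19516 to 20895 genes in the IP+LC replicates. LC replicate 1 was the shallowest and stood apart from the other LC tumors, with a Pearson's r across genes of 0.840 and 0.799 to them. LC replicates 2 and 3 had an r of 0.962 to each other. To IP+LC replicates 1, 2 and 3, LC replicate 1 had an r of 0.814, 0.796 and 0.822. These values were about as high as those to its own group. Of 11240 genes with enough UMIs, 16.8% were upregulated and 19.6% downregulated in the IP+LC group at an adjusted p below 0.1 by edgeR's quasi-likelihood test, with a median log2 fold change of 0.02 over all tested genes. Scaling by library size alone moved this median by 0.16, and the calls went from 1885 upregulated and 2203 downregulated genes to 2520 and 1800. These shares rose to 28.3% and 28.7% without LC replicate 1. They fell to 8.81% and 13.6% without LC replicate 2 and to 11.2% and 15.2% without LC replicate 3. Leaving out an IP+LC tumor gave 9.25% and 13.4% for replicate 1, 7.61% and 11.6% for replicate 2 and 11.1% and 15.5% for replicate 3. Calls were thus gained or lost over all genes with each of these changes. All fold changes below are IP+LC over LC.

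Interferon gamma binds a receptor on the cell surface, and genes that respond to it often carry gamma-activated sites (GAS) in their promoters. IRF1, itself induced by interferon gamma, and other interferon regulatory factors bind interferon-stimulated response elements (ISRE). Gbp proteins are dynamin-like GTPases that gather on the vacuoles and surfaces of intracellular microbes and can open the way to inflammasome activation. Irg proteins act on the same vacuoles. Irgm1, Irgm2 and Igtp (also called Irgm3) are regulators that sit on the host's own membranes, and Iigp1 (Irga6) and the Tgtp proteins (Irgb6) are effectors that coat the vacuole. In mice, both families are among the most strongly interferon-induced genes of macrophages and of many other cells.

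The genes of both families stand in clusters. Gbp5, Gbp7, Gbp3 and Gbp2 lie side by side on chromosome 3, between positions 142493978 and 142638008 of GRCm38, together with Gbp2b. Gbp6 lies on chromosome 5 in a cluster with Gbp4, Gbp8, Gbp9, Gbp10 and Gbp11. Irgm1 lies on chromosome 11 from 48861968 to 48871683, and Igtp and Irgm2 lie on the same chromosome near 58199556. Iigp1 and Gm4841 lie on chromosome 18. The 5 Gbp members have 10 coding exons and code for 589 to 724 residues. Igtp, Irgm1 and Irgm2 have 2 coding exons, Iigp1 and Gm4841 have 1, and these 5 code for 407 to 423 residues.

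Promoter sequences of 7 of the 10 genes were available from RefSeq (GRCm38.p6). Gbp6, Iigp1 and Gm4841 had no entry. The 250 bases before each annotated start were searched on both strands for the ISRE letters GAAANNGAAA and the GAS letters TTCNNNGAA. At least 1 ISRE match was found for all 7 genes, against 2.98% of all 32851 promoter windows. A GAS match was found for Gbp5, Gbp7, Igtp and Irgm2, against 7.02% of all windows. Gbp3 has 2 annotated starts, and only 1 of their windows held matches. Of the 21 listed relatives, 9 had a window, and 5 of these held an ISRE match and 4 a GAS match, while 9930111J21Rik1, 9930111J21Rik2, Gm5431 and Irgq held neither. A match is a description of the letters and no evidence that a factor binds there.

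The stretches with the matches are shown so that the letters and spacing can be compared between these related genes. They are written 5′ to 3′ on the gene's strand, capitals mark ISRE and GAS matches, and an ISRE read from the opposite strand appears as TTTCNNTTTC. In Gbp2 (chr3:142620563-142620662), Gbp3 (chr3:142559944-142560043) and Gbp7 (chr3:142530226-142530335), the ISRE match began 59, 45 and 53 bases before the start, and in Gbp5 (chr3:142496684-142496893) 165 bases before it. In Gbp3, a pair of matches overlapped.
Gbp2: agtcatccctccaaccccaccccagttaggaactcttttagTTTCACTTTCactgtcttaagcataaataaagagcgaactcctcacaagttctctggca
Gbp3: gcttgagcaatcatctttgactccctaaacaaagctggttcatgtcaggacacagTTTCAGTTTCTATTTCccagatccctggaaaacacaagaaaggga
Gbp7: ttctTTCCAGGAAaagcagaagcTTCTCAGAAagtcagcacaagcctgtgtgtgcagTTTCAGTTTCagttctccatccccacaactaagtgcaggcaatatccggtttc
Gbp5: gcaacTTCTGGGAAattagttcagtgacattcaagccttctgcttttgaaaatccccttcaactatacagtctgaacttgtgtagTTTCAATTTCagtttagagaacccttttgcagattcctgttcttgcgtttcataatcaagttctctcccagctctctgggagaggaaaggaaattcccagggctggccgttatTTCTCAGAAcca

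In the Irg members Irgm1 (chr11:48871421-48871520, minus strand), Igtp (chr11:58199456-58199555) and Irgm2 (chr11:58214877-58214976), the ISRE matches lay on the gene's own strand, and in Igtp and Irgm2 a GAS match began exactly 11 bases before the ISRE match. This spacing was noticed in these windows and then counted. It occurred in 5 of the 32851 windows, or 0.0152%, and the 5 genes were Igtp, Irgm2, Tgtp1, Tgtp2 and Gm12185, which are all Irg genes of chromosome 11. These windows are not independent. Igtp and Irgm2 shared an unbroken run of 55 bases, Tgtp2 and Gm12185 shared 114, and the other pairs among the 5 shared 11 to 27. Tgtp1 (chr11:48992307-48992346, minus strand) and Tgtp2 (chr11:49064273-49064312, minus strand) are shown for comparison.
Irgm1: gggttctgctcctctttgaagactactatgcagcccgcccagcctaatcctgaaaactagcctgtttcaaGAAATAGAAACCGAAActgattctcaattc
Igtp: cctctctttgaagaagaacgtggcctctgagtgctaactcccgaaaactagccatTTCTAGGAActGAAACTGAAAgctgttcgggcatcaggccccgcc
Irgm2: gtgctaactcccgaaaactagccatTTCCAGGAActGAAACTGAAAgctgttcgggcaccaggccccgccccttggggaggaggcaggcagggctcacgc
Tgtp1: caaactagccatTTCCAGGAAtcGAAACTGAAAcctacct
Tgtp2: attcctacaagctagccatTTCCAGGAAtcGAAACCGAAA

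**Figure D1:**
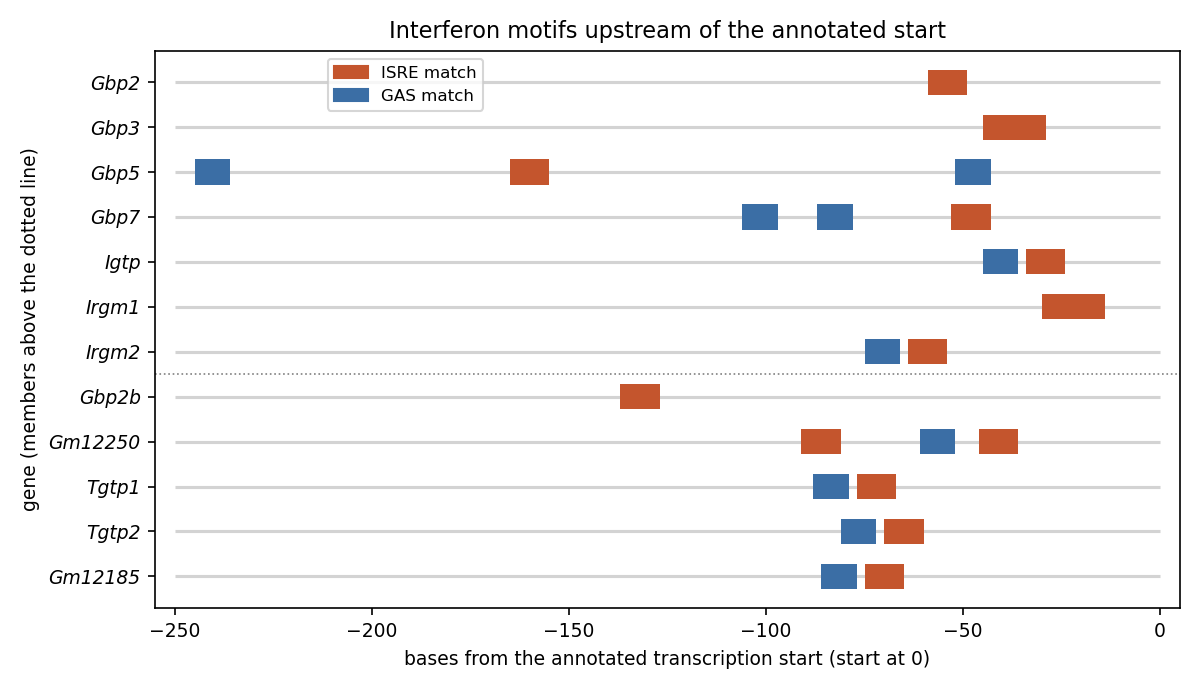
Positions of ISRE (red) and GAS (blue) matches in the 250 bases before the annotated start of 7 members (above the dotted line) and the 5 of 9 relatives that held a match, on an axis of bases from the start. In Igtp, Irgm2, Tgtp1, Tgtp2 and Gm12185 the GAS match begins 11 bases before the ISRE match, and in Gbp5 the ISRE match lies 165 bases before the start.

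Among tested genes with a RefSeq window, the share that was upregulated was 29.8% of 315 genes with an ISRE match, 18.7% of 620 genes with a GAS match and 16.7% of 7845 genes with neither. With the members, their listed relatives and the Irg gene Ifi47 left out, these shares were 27.1% of 303, 17.6% of 612 and 16.7% of 7842. The ISRE share stayed above the others without these families, and the GAS share was near that of genes with neither match. No test of these shares was run.

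Gbp2, which is attached to membranes by a lipid anchor, had the highest mean level of the members in both groups, although Gbp7 was above it in LC replicate 3. Its level was 107, 112 and 114 CPM in LC replicates 1, 2 and 3, and 1212, 1442 and 1140 CPM in the IP+LC replicates. All IP+LC tumors were far above all LC tumors, and the LC tumors were nearly equal, with a coefficient of variation of 3.22%. The mean CPM went from 111 ± 3.56 to 1265 ± 158 (SD, n = 3 in each group). The log2 fold change was 3.51 ± 0.22 (SE).

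Gbp5, a relative of Gbp2 that promotes inflammasome assembly, was nearly silent in the LC tumors. It had 1, 7 and 10 UMIs there, or 1.72, 5.48 and 8.47 CPM, and 89.9, 81.1 and 66.1 CPM in the IP+LC tumors. Its log2 fold change of 3.74 ± 0.34 was the largest of the 9 members that had UMIs in the LC group, but rests on few UMIs in that group, and without LC replicate 1 it was 3.51. Gbp5 was the only Gbp member that was highest in IP+LC replicate 1.

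Gbp3 and Gbp7 are a close pair, with 78.3% identical coding bases. Gbp3 had 29.3, 32.1 and 58.5 CPM in the LC tumors and 198, 294 and 236 CPM in the IP+LC tumors. Gbp7 had 39.6, 83.0 and 121 CPM in the LC tumors and 213, 287 and 241 CPM in the IP+LC tumors. The pair reached the same level in the IP+LC tumors, with means of 243 ± 48.2 and 247 ± 37.4 CPM, whereas Gbp7 was the higher of the pair in each LC tumor. The log2 fold change was therefore 2.57 ± 0.31 for Gbp3 and 1.57 ± 0.35 for Gbp7, the smallest of the members. Gbp7 varied widely among the LC tumors, with a coefficient of variation of 50.2%, and its lowest value was in LC replicate 1, without which its log2 fold change was 1.29.

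Gbp6 had the lowest level of the Gbp members in the IP+LC tumors. It had 3, 5 and 8 UMIs in the LC tumors and 26, 42 and 26 UMIs in the IP+LC tumors. The CPM rose from 5.29 ± 1.43 to 20.7 ± 3.26, a log2 fold change of 1.96 ± 0.34. These values are uncertain. In libraries thinned to 592733 UMIs, the log2 fold change was 2.81. The transcript of Gbp6 matched other genes at 95% identity or more over its whole length, Gbp10 among them (98.4% identical coding bases), and 29.0% of its exonic bases overlapped the annotated gene Gm43302. Near-identical reads of such copies can be lost or assigned to the wrong copy. For the other 9 members, no such match fell in the last 500 bases of the transcript, where 3′ reads lie.

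**Figure D2:**
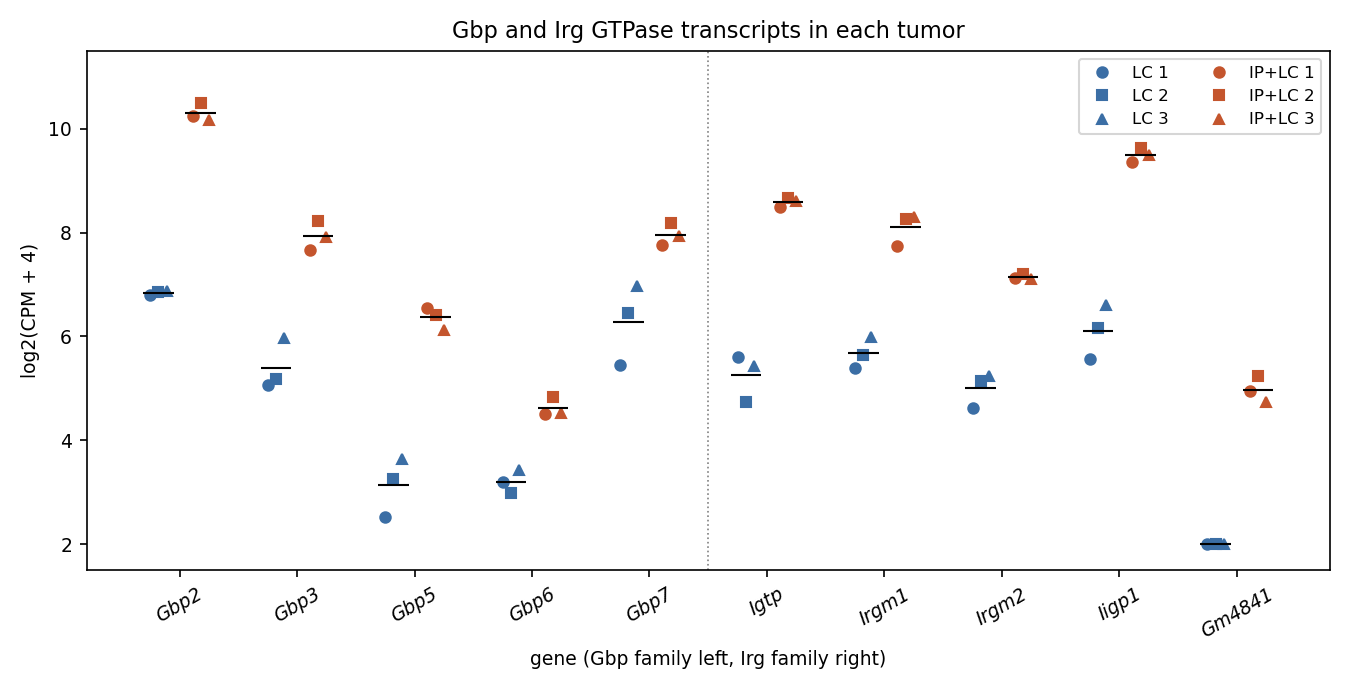
Levels of the 10 members in each tumor as log2(CPM + 4), with LC tumors in blue, IP+LC tumors in red, a symbol for each replicate and a black bar at the group mean. For each gene the 3 IP+LC points lie above the 3 LC points, with Gbp2 highest by its group means and Gm4841 at 0 CPM in all LC tumors.

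Among the Irg members, the effector Iigp1 had the highest mean level in both groups, although Igtp was slightly above it in LC replicate 1. Its level was 43.0, 67.4 and 93.2 CPM in the LC tumors and 654, 792 and 721 CPM in the IP+LC tumors. The groups were separated by a wide gap, from 93.2 to 654 CPM. The mean went from 67.9 ± 25.1 to 722 ± 69.0 CPM, a log2 fold change of 3.39 ± 0.29.

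Gm4841, an uncharacterized Irg gene in the same cluster as Iigp1 with 65.6% of coding bases identical to it, had 0 UMIs in all 3 LC tumors and 37, 58 and 31 UMIs in the IP+LC tumors. A count of 0 allows up to 3 UMIs, or 5.17, 2.35 and 2.54 CPM in LC replicates 1, 2 and 3. Against that limit in each LC library, the mean IP+LC level of 27.7 ± 5.72 CPM was at least 8.27-fold higher. The intervals and limits of single counts given here cover counting error only.

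The regulators Igtp, Irgm1 and Irgm2 differed in the size of their rise. Igtp had 44.8, 22.7 and 39.0 CPM in the LC tumors and 355, 402 and 383 CPM in the IP+LC tumors. Irgm1 had 37.9, 46.2 and 59.3 CPM in the LC tumors and 210, 305 and 310.1 CPM in the IP+LC tumors. Irgm2 had 20.7, 31.3 and 33.9 CPM in the LC tumors and 136, 143 and 134 CPM in the IP+LC tumors. None of the 3 genes overlapped between the groups. The log2 fold changes were 3.45 ± 0.28 for Igtp, 2.50 ± 0.26 for Irgm1 and 2.22 ± 0.23 for Irgm2. Igtp, which was below Irgm1 in LC replicates 2 and 3, was above it in all 3 IP+LC tumors, and in LC replicate 1. Igtp and Irgm2 overlap by 8.01% and 4.39% of their exonic bases, outside the 3′ ends.

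The order of levels changed between the groups. In the LC group, the order of the means was Gbp2, Gbp7, Iigp1, Irgm1, Gbp3, Igtp, Irgm2, Gbp6, Gbp5 and Gm4841, and the ranges of neighbours in this order overlapped down to Gbp5, except that Irgm2 was above Gbp6 in all LC tumors. In the IP+LC group, the order was Gbp2, Iigp1, Igtp, Irgm1, Gbp7, Gbp3, Irgm2, Gbp5, Gm4841 and Gbp6. There, Gbp2, Iigp1, Igtp, Irgm2 and Gbp5 did not overlap with any other member, while Irgm1, Gbp7 and Gbp3 overlapped, as did Gm4841 and Gbp6.

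All 10 members were upregulated and had no overlap between the groups, as the choice of the list implies. Of all tested genes, 16.8% were upregulated, and in 21.6% all IP+LC tumors were above all LC tumors. The median log2 fold change was 2.57 over the 5 Gbp members and, with Gm4841 at its lower bound, 3.05 over the 5 Irg members and 2.81 over all 10. Without LC replicate 1, the log2 fold changes of the 9 members other than Gm4841 were 1.29 to 3.64. In bulk tissue, more cells that express a gene and more RNA of that gene per cell cannot be told apart.

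Summed over the members, the Gbp family went from 183, 237 and 308 CPM in the LC tumors to 1731, 2129 and 1702 CPM in the IP+LC tumors. The Irg family went from 146, 168 and 225 CPM to 1382, 1675 and 1571 CPM. The families thus rose by a similar factor, 7.64-fold for Gbp and 8.58-fold for Irg, as ratios of the group means. The ratio of Gbp to Irg CPM was 1.25 to 1.41 in the LC tumors and 1.08 to 1.27 in the IP+LC tumors, ranges that overlapped. Together the 10 genes made up 329, 404 and 534 CPM in the LC tumors and 3113, 3804 and 3273 CPM in the IP+LC tumors. IP+LC replicate 2 had the highest level of the IP+LC group for 8 of the 10 genes, and LC replicate 3 had the highest level of the LC group for 8 of the 9 genes with UMIs there.

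The make-up of each family differed between the groups. Gbp2 made up 36.8% to 58.5% of the summed Gbp level in the LC tumors and 67.0% to 70.0% in the IP+LC tumors. Gbp7 made up 21.7% to 39.3% in the LC tumors and 12.3% to 14.2% in the IP+LC tumors. In the Irg family, Iigp1 made up 29.4% to 41.4% in the LC tumors and 45.9% to 47.3% in the IP+LC tumors, and Irgm1 made up 25.9% to 27.6% and 15.2% to 19.7%. These 4 shares did not overlap between the groups, nor did those of Gbp5, Gbp6, Irgm2 and Gm4841, whereas the shares of Gbp3 and Igtp overlapped. Within a family the shares are parts of the same sum and are not independent. The shares of the LC tumors rest on fewer UMIs. Igtp stood out in LC replicate 1, where it made up 30.6% of the Irg level against 13.6% and 17.3% in the other LC tumors.

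**Figure D3:**
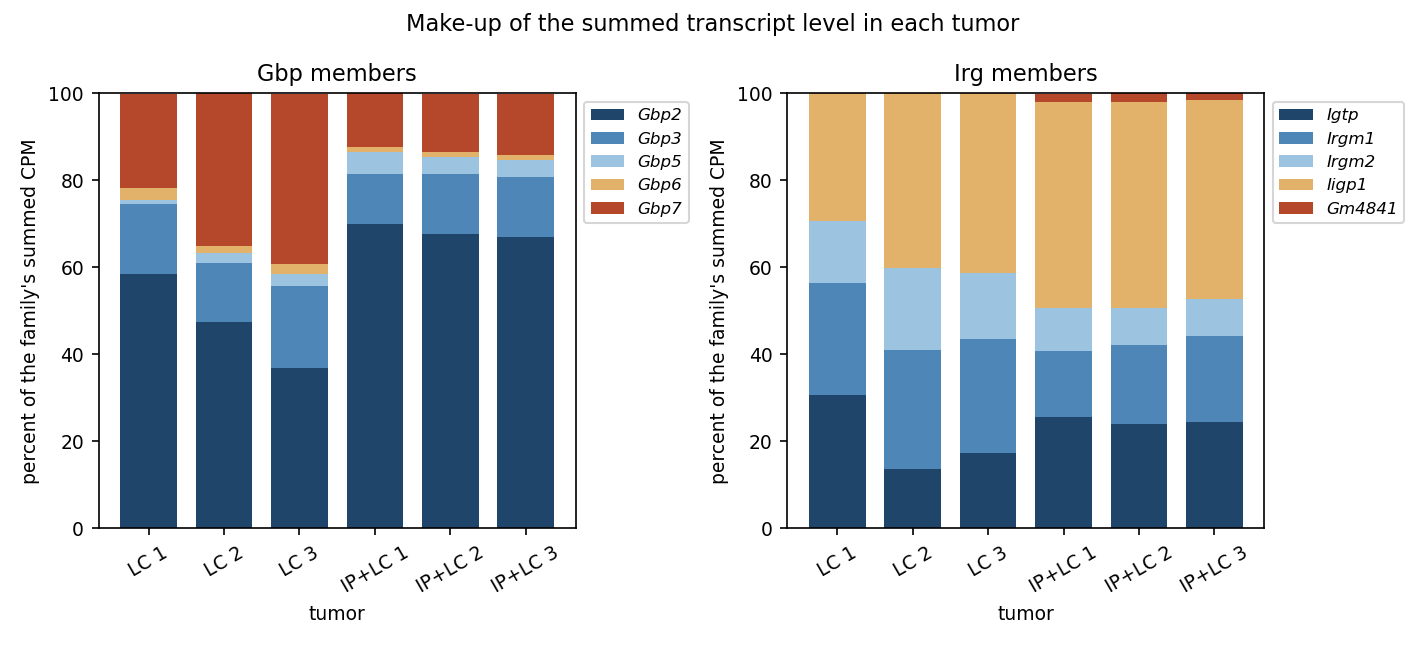
Percent of the summed CPM of the 5 Gbp members (left) and the 5 Irg members (right) that each gene took up in each tumor. Gbp2 takes 67.0% to 70.0% of the Gbp level in the IP+LC tumors against 36.8% to 58.5% in the LC tumors, and Gm4841 appears only in the IP+LC tumors.

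Of the other Gbp and Irg genes, 17 were listed, and 12 had enough UMIs for a test. Of these 12, 10 were upregulated and none was downregulated, against 16.8% and 19.6% of all tested genes. This count is a description only, because several of these genes had few UMIs in the LC tumors and passed the filter through the IP+LC tumors, where they were high. With at least 10 UMIs required in every library, 2 genes were tested, both Gbp relatives, and both were upregulated. All 4 Gbp relatives tested under the usual filter rose. Gbp4 had 37.9, 31.3 and 32.2 CPM in the LC tumors and 226, 262 and 203 CPM in the IP+LC tumors (log2 fold change 2.78 ± 0.22, edgeR adjusted p = 0.000522). Gbp8 had a log2 fold change of 2.89 ± 0.30. That of Gbp9 was 1.39 ± 0.25 (edgeR adjusted p = 0.00510). Gbp2b, the gene next to Gbp2, has 82.5% of coding bases identical to it. It had 1 UMI in each LC tumor and 20, 51 and 22 UMIs in the IP+LC tumors. The ratio was 21.1, with an exact 95% counting interval of 6.99 to 104. Gbp2b and Gbp8 passed the filter only through the IP+LC tumors, so no p-value is given for them. Gbp11 had 0, 1 and 1 UMIs in the LC tumors and 3, 10 and 5 UMIs in the IP+LC tumors, and Gbp10 had at most 2 UMIs in any tumor, so neither was tested.

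Of 11 other Irg genes, 8 were tested and 6 were upregulated, against 16.8% of all tested genes. With at least 10 UMIs required in every library, 0 could be tested. The 6 genes passed the filter only through the IP+LC tumors, so no p-value is given for their rise. Gm12250 (Irgb10), which is annotated as a processed pseudogene in GENCODE M21, had 0, 6.27 and 3.39 CPM in the LC tumors and 60.9, 107 and 88.6 CPM in the IP+LC tumors. Its log2 fold change was 4.43 ± 0.47. With few LC UMIs, this value was 5.20 without LC replicate 2 and 5.69 in libraries thinned to 592733 UMIs. The effector Tgtp1 had 0, 3.92 and 5.08 CPM in the LC tumors and 37.7, 46.1 and 47.9 CPM in the IP+LC tumors. The log2 fold change of Tgtp1 was 3.59 ± 0.42, or 4.35 in thinned libraries. Tgtp2, a near-identical copy, had a log2 fold change of 1.48 ± 0.29. At least 99.6% of each transcript matched the other copy or Gm12185, so the split of the UMIs between them is uncertain. With all libraries thinned, the call of Tgtp2 was lost (edgeR adjusted p = 0.121).

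The chromosome 18 relatives Gm4951 and F830016B08Rik rose as well. Gm4951 had a log2 fold change of 2.72 ± 0.49, or 3.58 in thinned libraries. That of F830016B08Rik, of which 53.6% of the last 500 bases matched other genes, was 3.35 ± 0.49. F830016B08Rik had 0, 3 and 6 UMIs in the LC tumors, and its log2 fold change was 4.17 without LC replicate 3. Gm12185 on chromosome 11, with 2, 1 and 5 UMIs in the LC tumors, had a log2 fold change of 2.53 ± 0.49, and 3.17 without LC replicate 3. For 9930111J21Rik2, the log2 fold change was 0.67 ± 0.45 (edgeR adjusted p = 0.295), and 1.32 without LC replicate 3 (edgeR adjusted p = 0.0879). Irgq, whose GTPase domain has lost its nucleotide-binding motifs, had mean CPM of 8.25 ± 3.48 in LC and 11.1 ± 2.53 in IP+LC tumors (edgeR adjusted p = 0.429). The other 3 Irg genes, 9930111J21Rik1, Gm5431 and Irgc1, were too low for a test, and Irgc1, a gene of the testis, had 0 UMIs in all IP+LC tumors.

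Outside these families, the antiviral GTPase Mx1 had a log2 fold change of 2.07 ± 0.40 (edgeR adjusted p = 0.00698). Mx2 and the giant GTPase genes Gvin1 and Gm4070 were too low for a test. Without LC replicate 1, 12 of the other Gbp and Irg genes were tested and 10 were upregulated, against 28.3% of all tested genes.

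The flanks of the clusters were examined for genes that moved with them. The nearest 3 protein-coding genes on each side of the 5 clusters were taken, 30 in all. Of these, 28 were in the tables and 21 were tested, and 2 were upregulated and 1 downregulated, with a median log2 fold change of 0.08. Of all tested genes, 16.8% were upregulated and 19.6% downregulated. One of the 2 upregulated genes was Ifi47 (log2 fold change 2.02 ± 0.20, edgeR adjusted p = 0.000821), which codes for the Irg protein Irgd and was missing from the lists used here. The other was Gemin5, an RNA-binding protein of the SMN complex (1.20 ± 0.34, edgeR adjusted p = 0.0296), and Lrrc8b, a subunit of volume-regulated anion channels, fell by 0.80 ± 0.21 on the log2 scale (edgeR adjusted p = 0.0233). Without LC replicate 1, 6 of 21 were called, 4 upregulated and 2 downregulated, against 28.3% and 28.7% of all genes. The calls of Gemin5 and Lrrc8b were lost when some other tumors were left out or the filter was changed (edgeR adjusted p up to 0.119 and 0.111).

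Inside the first chromosome 11 cluster, Psme2b and Olfr56, which belong to other families, were also higher in the IP+LC tumors. Psme2b had a log2 fold change of 1.42 ± 0.25. Olfr56 had 0, 3 and 1 UMIs in the LC tumors and 11, 21 and 14 UMIs in the IP+LC tumors. It passed the filter only through the IP+LC tumors, so its fold is uncertain. These 2 genes were named after their values were seen, so no p-value is given. Olfr56 is an olfactory receptor gene whose level reached 12.3 CPM in the highest IP+LC tumor.

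**Figure D4:**
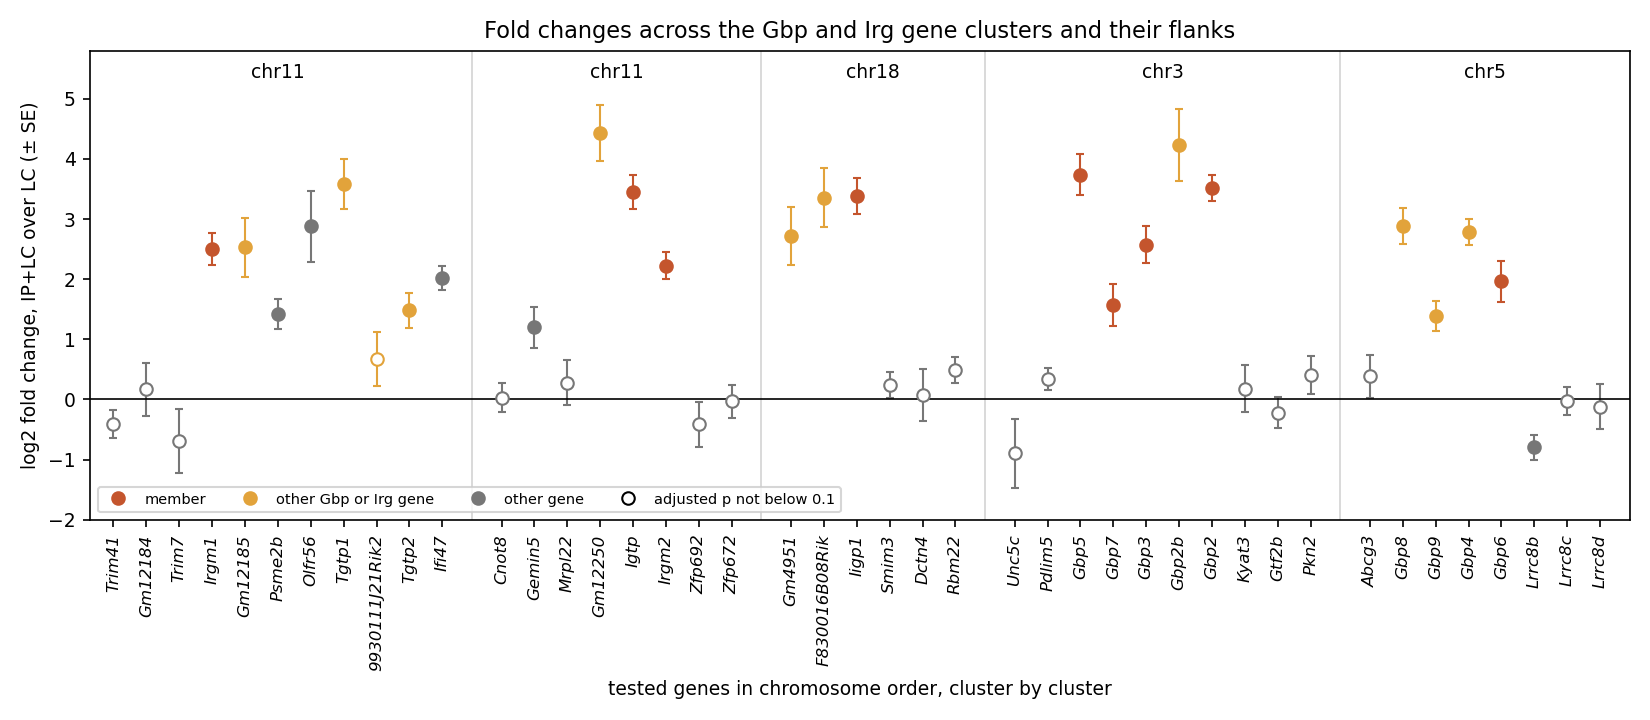
Log2 fold change of IP+LC over LC with SE for the tested genes of the 5 clusters and their flanks in chromosome order, with members in red, other Gbp and Irg genes in orange, other genes in grey, and open symbols for an adjusted p that is not below 0.1. Flanking genes lie between -0.89 (Unc5c) and 0.49 (Rbm22) except Gemin5 at 1.20 and Ifi47, an Irg gene drawn in grey because it was not listed, at 2.02, members lie at 1.57 or above, and Gm4841 is left out because its LC counts are 0.

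Of the regulators of the interferon gamma response, 20 were listed, 19 were tested and 12 were upregulated, with a median log2 fold change of 0.86. Of all tested genes, 16.8% were upregulated. Without LC replicate 1, 16 of 20 were upregulated and 2 downregulated, against 28.3% and 28.7% of all tested genes. With any other tumor left out, 10 to 12 were upregulated, against 7.61% to 11.2% of all tested genes. The ligand Ifng itself had 0 UMIs in all LC tumors and 8, 14 and 11 UMIs in the IP+LC tumors, at least 2.18-fold higher against 3 UMIs in each LC library. It was too low for a test. The receptor chains moved less. The mean CPM of Ifngr1 was 167 ± 46.3 in LC and 117 ± 19.5 in IP+LC tumors (edgeR adjusted p = 0.162). Ifngr2 had 27.6, 87.0 and 112 CPM in the LC tumors and 141, 118 and 136 CPM in the IP+LC tumors (edgeR adjusted p = 0.176). Without LC replicate 1, Ifngr1 fell by 0.71 and Ifngr2 rose by 0.41 on the log2 scale, with edgeR adjusted p-values of 0.00159 and 0.0414.

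Transcriptional regulators of the response were among the upregulated genes. Irf1, whose product binds ISRE, had 164, 106 and 60.2 CPM in the LC tumors and 405, 416 and 339 CPM in the IP+LC tumors (log2 fold change 1.84 ± 0.33, edgeR adjusted p = 0.00511). Batf2 and Nlrc5, the MHC class I transactivator, had log2 fold changes of 2.86 ± 0.34 (edgeR adjusted p = 0.00116) and 2.49 ± 0.25 (edgeR adjusted p = 0.000821). The largest fold change of the list was that of Socs1, the feedback inhibitor of the receptor's kinases, at 3.98 ± 0.33 (edgeR adjusted p = 0.000565). It went from 9.25 ± 5.45 to 131 ± 13.9 CPM.

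The genes listed as inducers of interferon gamma were mostly too low for a test, with 4 of 10 tested. Il12rb1, a chain of the IL-12 receptor, had 3, 1 and 1 UMIs in the LC tumors and 23, 38 and 21 UMIs in the IP+LC tumors (log2 fold change 3.36 ± 0.56, edgeR adjusted p = 0.00354). With so few LC UMIs, its log2 fold change was 4.35 without LC replicate 1 and as low as 2.90 without LC replicate 2. Il18 fell by 0.86 ± 0.24 (edgeR adjusted p = 0.0283) and its receptor chain Il18r1 by 1.57 ± 0.37 on the log2 scale (edgeR adjusted p = 0.0141). The fall of Il18 missed the limit when LC replicate 2, IP+LC replicate 1 or IP+LC replicate 2 was left out (edgeR adjusted p up to 0.136).

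Genes of the machinery that works with the Gbp and Irg proteins were also examined. Of 15 genes that direct these GTPases to vacuoles, most of them autophagy genes, 1 was upregulated and 4 were downregulated, with a median log2 fold change of -0.15, against 16.8% and 19.6% of all genes. With so few genes, these counts are not read as a result about the list. Without LC replicate 1, 3 were upregulated and 5 downregulated, against 28.3% and 28.7% of all genes. The genes of the conjugation machinery, Atg3, Atg5, Atg7, Atg12 and Atg16l1, did not pass the test and had log2 fold changes of -0.31 to 0.15. Of the ubiquitin-like proteins they conjugate, Map1lc3a fell by 1.52 ± 0.21 (edgeR adjusted p = 0.00167) and Gabarapl1 by 1.28 ± 0.19 on the log2 scale (edgeR adjusted p = 0.00232). Map1lc3b and Gabarapl2 were the other 2 downregulated genes. Trim21, a ubiquitin ligase recruited to such vacuoles, rose by 1.01 ± 0.24 (edgeR adjusted p = 0.0149), a call that was lost in thinned libraries (edgeR adjusted p = 0.144). None of the 5 genes for the enzymes that lipidate and process proteins such as Gbp2 and Gbp5 was called, with a median log2 fold change of 0.09 in the IP+LC group.

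Of 8 genes of inflammasomes, complexes that Gbp proteins help to activate, 7 were tested and all 7 were upregulated, with a median log2 fold change of 1.06. Of all tested genes, 16.8% were upregulated. The count fell to 3 of 7 without LC replicate 2 or 3 or without IP+LC replicate 1 or 2. The share over all tested genes was then 8.81%, 11.2%, 9.25% and 7.61%. Casp1 and Casp4, the caspases that cleave gasdermin D, had log2 fold changes of 1.22 ± 0.30 (edgeR adjusted p = 0.0183) and 1.06 ± 0.22 (edgeR adjusted p = 0.00892). The DNA sensor Aim2 rose by 1.32 ± 0.37 (edgeR adjusted p = 0.0304), the sensor Nlrp3 by 1.12 ± 0.45 (edgeR adjusted p = 0.0956) and the cytokine Il1b by 1.04 ± 0.33 (edgeR adjusted p = 0.0477). The calls of Aim2, Nlrp3 and Il1b were among those lost (edgeR adjusted p up to 0.147 for Aim2, 0.347 for Nlrp3 and 0.197 for Il1b).

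Of 22 genes known as type I interferon-stimulated genes, 20 were upregulated, with a median log2 fold change of 1.60. The largest fold changes were those of Zbp1, a nucleic acid sensor (2.94 ± 0.29, edgeR adjusted p = 0.000821), Oasl1 (2.54 ± 0.40, edgeR adjusted p = 0.00296), Rsad2 (2.48 ± 0.34, edgeR adjusted p = 0.00167), Oas3 (2.23 ± 0.35, edgeR adjusted p = 0.00280) and Isg15 (2.19 ± 0.42, edgeR adjusted p = 0.00664). Over the 5 lists and the regulators together, 41 of 72 tested genes were upregulated and 6 downregulated. Without LC replicate 1, 48 and 11 of 73 were, while the shares over all genes went from 16.8% and 19.6% to 28.3% and 28.7%. As the lists were drawn up with results of these tumors known, their counts are not independent evidence of a direction.

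Marker transcripts of several cell types differed between the groups. The counts below stand against 16.8% of all tested genes upregulated and 19.6% downregulated. Without LC replicate 1 these shares were 28.3% and 28.7%. With any other tumor left out they were 7.61% to 11.2% and 11.6% to 15.5%. Of 9 macrophage markers, 3 (Adgre1, C1qa and C1qc) were upregulated and 2 (Cd163 and Lyz2) downregulated. None was upregulated when any tumor other than LC replicate 1 was left out, under upper quartile scaling or at an adjusted p below 0.05, and 6 were without LC replicate 1. The macrophage markers' summed level was 13229 to 15735 CPM in the LC tumors and 7929 to 9602 CPM in the IP+LC tumors, most of it Lyz2. Of 9 T cell and NK cell markers, 7 were tested and 1 was downregulated, with summed levels of 139 to 164 and 106 to 190 CPM, and Cd3e and Cd8a had 0 UMIs in LC replicate 1. The 1 call in this list was lost without LC replicate 3 or any IP+LC replicate, and 1 marker was instead upregulated without IP+LC replicate 1. All 6 alveolar macrophage markers, 4 of 4 B cell markers and 6 of 6 endothelial markers were downregulated, and of 5 neutrophil markers 3 were. The B cell count fell to 2 without LC replicate 2, IP+LC replicate 1 or IP+LC replicate 2, and to 1 in thinned libraries. Of 6 dendritic cell markers, 3 were tested and 1 was downregulated, against 0 to 3 with 1 tumor left out, most of them without LC replicate 1. Summed type 2 alveolar markers were 33785 to 41892 CPM in the LC tumors and 5826 to 10817 CPM in the IP+LC tumors, and summed airway markers were 45149 to 51761 and 3060 to 6800 CPM. Of 4 type 1 alveolar markers, 4 were downregulated, and of 6 fibroblast markers, 2 rose and 3 fell, with 1 rising without LC replicate 3 or IP+LC replicate 2. Of 5 proliferation genes, 4 were upregulated, 5 without LC replicate 1, and 2 when any other tumor was left out. The part of these differences in the levels of the Gbp and Irg genes was not tested.

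In LC replicate 1, some other genes that were higher in the IP+LC group were not at the level of the other LC tumors. The summed level of the complement genes C1qa, C1qb and C1qc, which are made by macrophages, was 1677 CPM in LC replicate 1 and 530 and 319 CPM in the other LC tumors, against 1676, 2241 and 2032 CPM in the IP+LC tumors. The proliferation genes summed to 415 CPM in LC replicate 1, to 90.9 and 90.7 CPM in the other LC tumors and to 775 to 926 CPM in the IP+LC tumors. The sum in LC replicate 1 was raised by Cdk1 (169 CPM), Top2a (102 CPM), Ccnb1 (70.6 CPM) and Aurkb (49.9 CPM). Mki67 stayed near the other LC tumors, at 24.1 CPM against 18.0 and 20.3 CPM, with 107 to 159 CPM in the IP+LC tumors. The 10 Gbp and Irg members, at 329 CPM, were lower in LC replicate 1 than in the other LC tumors. The C1q genes were picked from the macrophage markers after their values were seen, and the other 6 markers were divided. Cd68 had 198 CPM in LC replicate 1, 87.0 and 75.4 CPM in the other LC tumors and 183 to 193 CPM in the IP+LC tumors. Csf1r had 201 CPM in LC replicate 1, 82.3 and 69.5 CPM in the other LC tumors and 152 to 203 CPM in the IP+LC tumors. Adgre1, at 62.0, 32.1 and 35.6 CPM in LC replicates 1, 2 and 3 and 52.2 to 80.0 CPM in the IP+LC tumors, showed the same order. The remaining markers, Lyz2, Cd163 and Mrc1, were not higher in the IP+LC group. Lyz2 had 13418 CPM in LC replicate 1 and 12374 and 13592 CPM in the other LC tumors, and Cd163 had 17.2, 14.9 and 14.4 CPM, both above all IP+LC tumors. Mrc1 had 162 CPM in LC replicate 1, 108 and 107 CPM in the other LC tumors and 94.4 to 162 CPM in the IP+LC tumors. It thus shared the high value in LC replicate 1 but not the difference between the groups. These values describe 1 tumor.

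**Figure D5:**
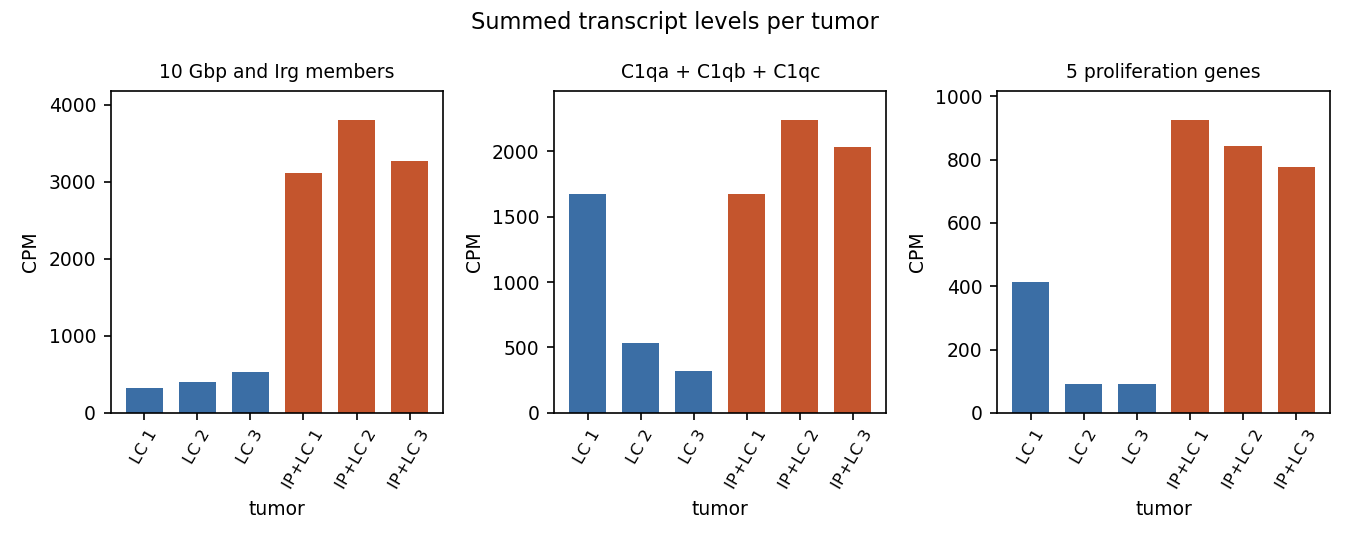
CPM in each tumor of the 10 Gbp and Irg members together, the C1q genes and 5 proliferation genes, with LC tumors in blue and IP+LC tumors in red. LC replicate 1 is at the level of IP+LC replicate 1 for C1q (1677 and 1676 CPM) but at 329 CPM for the members, against 3113 to 3804 CPM in the IP+LC tumors.

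The genes outside the family lists that were most like the mean of the members over the 6 tumors, among 10114 genes that had 10 or more UMIs in all IP+LC tumors, were Cd274, Sema4a, Sf3a1, Hk2 and Chd4, with Pearson's r of 0.996 to 0.997 on log2(CPM + 4). All 6 points come from the same libraries in 2 groups, so r mostly reflects the gap between the groups. Cd274, which codes for the checkpoint ligand PD-L1, had 6.89, 10.2 and 11.9 CPM in the LC tumors and 64.5, 70.6 and 71.9 CPM in the IP+LC tumors. Hk2, a hexokinase, had 9.71 ± 4.09 and 65.5 ± 11.3 CPM. Sema4a, a semaphorin, Sf3a1, a splicing factor subunit, and Chd4, a chromatin remodeler, had smaller log2 fold changes of 0.55 ± 0.19, 1.06 ± 0.19 and 0.85 ± 0.19. The call of Sema4a was lost under many alternatives (edgeR adjusted p up to 0.572). Each member's own r to the mean of the other 9 was 0.921 for Gbp7 and 0.971 to 0.997 for the others.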

How the data were processed

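Tumor RNA of 3 LC and 3 IP+LC mice was made into 3′ libraries by bulk RNA barcoding and sequencing. Per the authors' methods and processing notes, UMIs were extracted with UMI-tools 1.1.1, reads were trimmed with Trim Galore 0.6.7, aligned to GRCm38 with HISAT2 2.2.1 and assigned to genes with featureCounts 2.0.1. DESeq2 is also named, without a version. The annotation release and the strand setting are not given in the sources used here. The deposited values are raw counts of different UMIs per gene, in 1 table per tumor. Reads of near-identical genes can be lost or misassigned by such counting.

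Counts were compared in R 4.3.3 with edgeR 4.0.16 (filterByExpr with a minimum count of 10 and a minimum total of 15, TMM scaling, quasi-likelihood test, Benjamini-Hochberg adjustment over 11240 genes, limit 0.1). No source says how mice were assigned to replicates, so p-values measure the spread between these samples. Some other named genes, such as Il12rb1, passed the filter only through the IP+LC tumors, and their p-values are a description. Replicates of a group differed by more than sampling noise. Gene models came from GENCODE M21, near-identical copies from blastn 2.17.0+ (at least 81 bases at 95% identity) and promoters from RefSeq. The scripts were tested on simulated data.

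The members and gene lists were chosen with earlier results of these data known. The text names all members and relatives, the called genes with the largest fold in each direction (up to 5 a list), Ifng, its receptor chains and Irf1, called cluster neighbours (clusters of 2 or more family genes that hold a member) and the 5 genes most like the members. Alternatives were other scalings and filters, DESeq2 1.42.0, limma 3.58.1 voom, a replicate block, libraries thinned to 592733 UMIs, a limit of 0.05 and each tumor left out. One further gene that this rule names is not reported here.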

Additional observations from a re-analysis of the deposited data

How the results depend on the processing

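The summed Gbp and Irg levels stayed within the spread between replicates under every scaling, after thinning and with each tumor left out. As log2 ratios they were 2.93 and 3.10, and 2.78 to 3.13 and 2.98 to 3.28 with 1 tumor left out. The median log2 fold change of the members, 2.98 with the fitted value of Gm4841, was 2.81 to 3.23 with 1 tumor left out and 2.57 when at least 10 UMIs were required in every library, which left 7 of the 10. Of single members, Gbp2 moved to 3.67 by library size only and Gbp6 to 2.81 after thinning.

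The count of called genes, 4088, fell to 2379 of 8876 tested after thinning to 592733 UMIs and was 2265 to 6691 with 1 tumor left out, highest without LC replicate 1 and outside 1.5 times the count also without LC replicate 2 (2585) and IP+LC replicates 1 (2660) and 2 (2265). The 11 upregulated relatives (Mx1 included) became 2 of 2 tested when at least 10 UMIs were required in every library, and were 11 or 12 with 1 tumor left out. The 41 upregulated pathway genes were 32 to 48 with 1 tumor left out. The 3 called neighbours were 5 by library size only and 2 to 6 with 1 tumor left out, highest without LC replicate 1, when 28.3% of all genes were upregulated and 28.7% downregulated. Same-numbered tumors of the groups did not deviate together (r of 0.03, -0.12 and 0.11), and a fit with a replicate block called 3410 genes, 11 relatives, 39 upregulated pathway genes and 3 neighbours, with a member median of 3.04. It changed no call of a member or relative. The calls of Nlrp3 and Sema4a were lost (edgeR adjusted p = 0.18 and 0.14), T and NK cell markers went from 1 downregulated to 1 upregulated, dendritic cell markers from 1 to 0 downregulated and proliferation genes from 4 to 5 upregulated. The cause of these shifts was not tested.

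Depth limits the low members. Gm4841, Gbp5 and Gbp6 had at most 0, 10 and 8 UMIs in an LC library, and a fold of Gm4841 is known only as a lower bound.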
